A study of Oryza sativa with 4 samples.

Results

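OsMADS27 peaks on the distal arms of rice chromosomes 1 to 3 were described here: those with a summit at or above 24 Mb on chromosome 1, at or above 20 Mb on chromosome 2, and below 14 Mb or at or above 24 Mb on chromosome 3. The rule uses position alone. It selected 8779 of 72738 peaks in the list of replicate 1 (12.1%) and 8934 of 73366 in that of replicate 2 (12.2%). The remaining 9226 and 9157 peaks of the same chromosomes served as the comparison. Up to the last listed peak of each chromosome, the 4 distal segments spanned 61.6 Mb and the rest 54 Mb.

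Chromatin came from regenerating young seedlings of the indica cultivar Pusa Basmati 1 (PB1) grown on Murashige-Skoog medium without treatment. Pulled-down and input libraries all came from transgenic plants overexpressing OsMADS27 with an N-terminal 3xMyc tag, so no library lacked the transgene. The 4 libraries are 2 of DNA pulled down on Myc-Trap beads and 2 of input chromatin, and each peak list was made with the input carrying its own replicate number. The promoter of the transgene was not given in the sources used here, nor whether the replicates came from separate plants, so the spread between lists may be technical.

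OsMADS27 is a MADS-domain transcription factor related to the nitrate-responsive ANR1 of Arabidopsis, a family whose members recognise the CArG box. Rice chromosomes carry their genes mainly toward the ends of the arms, while transposable elements and heterochromatin accumulate around the centromeres. The lists hold no gene, repeat or chromatin annotation, so whether the 4 segments are euchromatic was not tested. With a build not given in the sources used here, no gene or sequence was assigned to any peak. The chosen boundaries leave the short-arm ends of chromosomes 1 and 2 in the rest.

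Distal peaks were fewer per Mb than those of the rest, but a larger share of them had another within 1 kb, a distance chosen after the data were examined. Density was 143 peaks per Mb in replicate 1 (95% exact Poisson interval 139.5 to 146) and 145 in replicate 2 (142 to 148). The rest held 171 (167 to 174) and 169.6 (166 to 173). The distal density was thus 0.834 and 0.855 times that of the rest, a mean of 0.845 ± 0.0149 (SD, n = 2 lists). Intervals cover counting error only, and no p-value is given, because peaks are not replicates and an exact test over 2 lists cannot reach 0.05. The lists differ from each other less than the distal segments differ from the rest, but this is a description of 1 set of segments and nothing is called particular to them.

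The difference in density was not uniform over chromosomes. On chromosome 1 the long-arm segment held 154 and 155 peaks per Mb against 195 and 194 in its rest. On chromosome 3 the short-arm segment held 137 and 144 and the long-arm segment 119 and 119, against 172 and 171 between them. On chromosome 2 the direction was the opposite, with 152 and 155 peaks per Mb in the long-arm segment and 141 and 139 in the rest. Without chromosome 2 the ratio of distal to rest was 0.747.

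The short-arm ends resembled the distal segments in density. The end of the short arm of chromosome 1, below 10 Mb, held 135 and 138.5 peaks per Mb, and that of chromosome 2, below 8 Mb, held 128 and 125. Both belong to the rest by the rule, yet their densities lay within the range of the distal segments. Chromosome 1 from 10 to 24 Mb held 238 and 234 per Mb, and chromosome 2 from 8 to 20 Mb held 149.3 and 148.5, below its own long-arm segment in both lists.

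**Figure D1:**
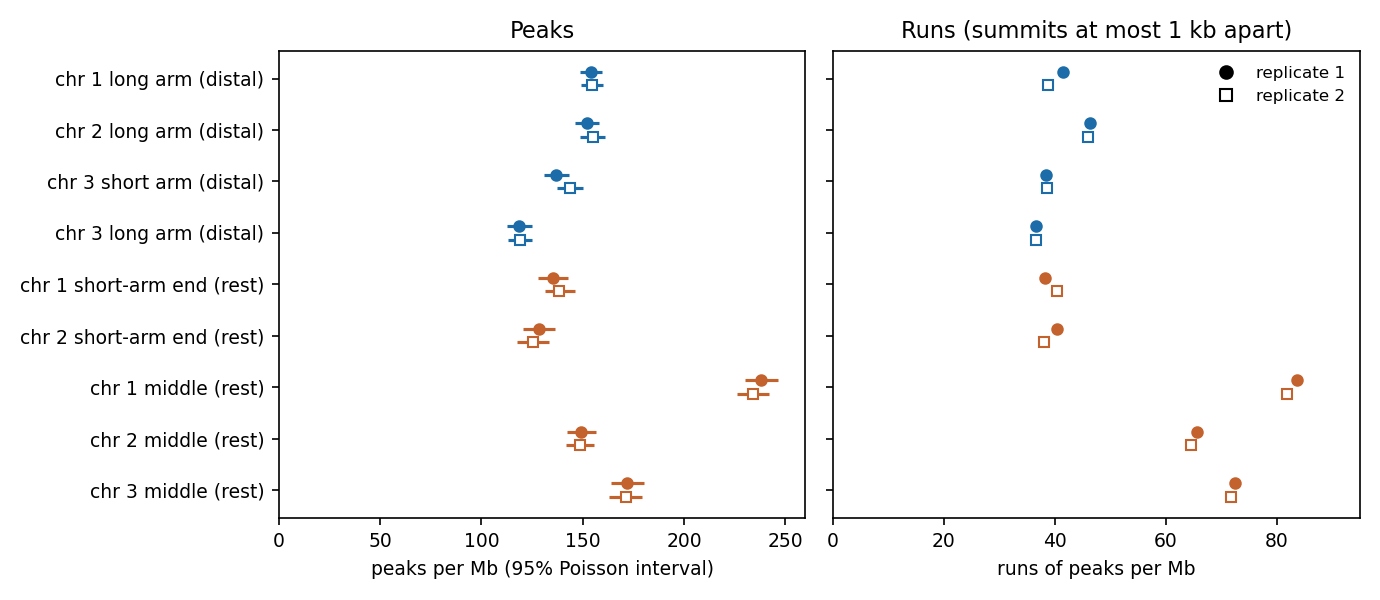
Peaks per Mb (left, with 95% exact Poisson intervals) and runs of peaks per Mb (right) in the 4 distal segments (blue) and in parts of the rest (orange), for replicate 1 (filled circles) and replicate 2 (open squares). Runs per Mb lie between 36.6 and 46.4 in the distal segments and between 64.6 and 83.7 in the middle parts, with the short-arm ends among the distal values.

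Grouping of neighbouring peaks separated distal from middle parts more evenly than density did. A run was defined, after the data were examined, as a stretch of peaks whose neighbouring summits lay at most 1 kb apart. The distal segments held 2528 and 2474 runs, or 41.0 and 40.2 per Mb, against 62.8 and 62.0 per Mb in the rest. The ratio was 0.654 and 0.648. It was below 1 on every chromosome in both lists: 0.641 and 0.600 on chromosome 1, 0.834 and 0.850 on chromosome 2. Chromosome 3 had the lowest, 0.518 and 0.525. The short-arm ends held 38.2 and 40.4 runs per Mb on chromosome 1, and 40.4 and 38.1 on chromosome 2, within the range of the distal segments in all 4 values.

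Peaks standing alone were rarer in the distal segments, while runs of 5 or more peaks were of similar frequency when the chromosomes were pooled, 8.10 and 8.51 per Mb against 8.07 and 8.20. On chromosome 2 these runs were more frequent in the distal segment, 8.92 and 8.92 against 6.35 and 6.55. The chromosome 1 segment had 9.39 and 9.86 against 10.1 and 9.79. On chromosome 3 the short arm had 7.64 and 8.36 and the long arm 5.56 and 6.04, on either side of the 6.60 and 7.70 between them. Single peaks, with no other summit within 1 kb, numbered 17.6 and 16.8 per Mb against 32.1 and 32.3, so their ratio was 0.549 and 0.519. Peaks in runs of 2 to 4 stood between, at 40.3 and 39.2 per Mb against 58.3 and 55.8. Pooled over the chromosomes, the lower density of distal peaks lay in single peaks and short runs. Single peaks in the short-arm ends, counted in the rest, numbered 17.9 and 20.3 per Mb on chromosome 1, and 19.75 and 16.6 on chromosome 2.

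Counted by peak, 87.6% of distal peaks in replicate 1 (95% Wilson interval 86.9 to 88.3%) and 88.4% in replicate 2 (87.7 to 89.1%) had another within 1 kb. Of all peaks of the series 83.0% and 83.7% did, and of the rest 81.2% (80.4 to 82.0%) and 80.9% (80.1 to 81.7%). The share was higher in the distal part of each chromosome, by 3.88 and 6.12 percentage points on chromosome 1, 8.52 and 8.66 on chromosome 2, and 10.6 and 11.5 on chromosome 3. In the short-arm ends, counted in the rest, it was 86.8% and 85.3% on chromosome 1, and 84.6% and 86.7% on chromosome 2. Runs of 5 or more held 59.3% and 61.4% of distal peaks, against 47.1% and 48.1% in the rest and 49.7% and 51.3% in the series. The median distance from a distal peak to its nearest neighbour was 304 and 288 bp, against 342 and 337 bp. The excess depended on the distance: the mean difference of 6.96 percentage points at 1 kb was 3.53 at 2 kb. Of neighbouring distal pairs 88.3% and 88.7% lay within 10 kb, against 88.1% and 87.8% in the rest, and 91.1% and 91.3% within 20 kb, against 92.1% and 92.0%.

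**Figure D2:**
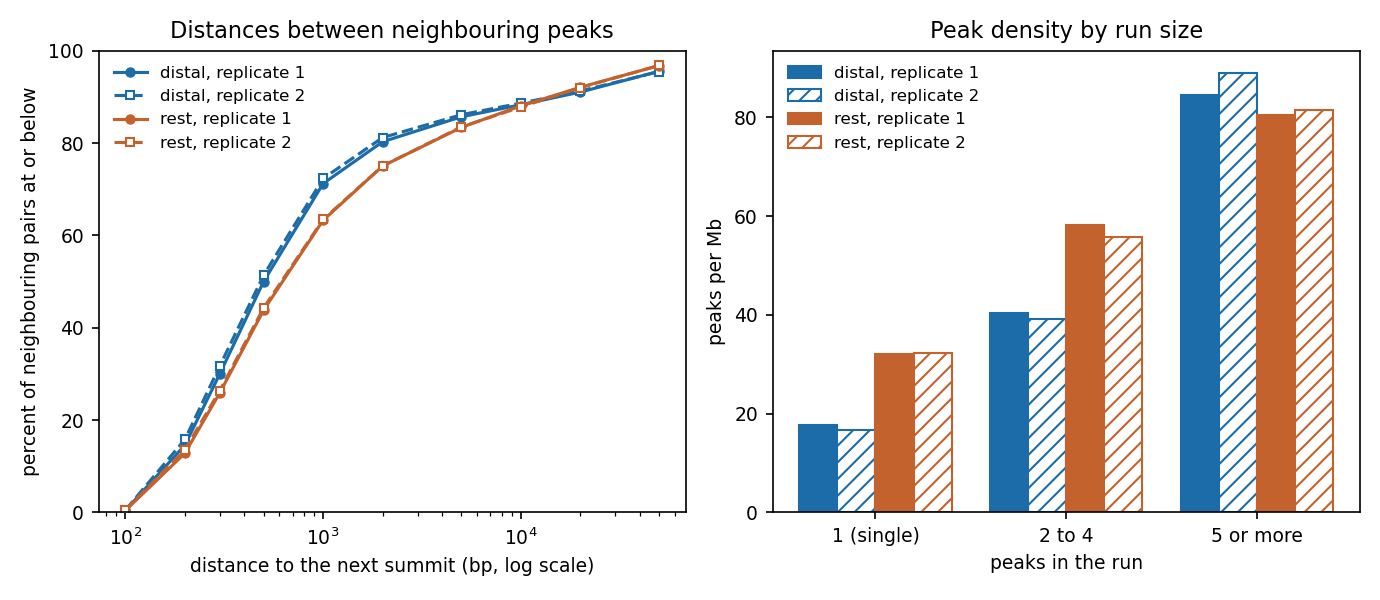
Left, percent of neighbouring peak pairs whose summits are at most the given distance apart (log scale), distal (blue) and rest (orange), replicate 1 solid and replicate 2 dashed. Right, peaks per Mb by the number of peaks in their run, where the bars of single peaks stand at 17.6 and 16.8 for distal and 32.1 and 32.3 for rest, and those of 5 or more nearly level.

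Distal runs were found again in the other list. Of 499 runs of at least 5 peaks in replicate 1, 429 (86.0%) overlapped such a run in replicate 2, and the same number made up 81.9% of the 524 there. The overlap was not computed for runs of the rest or of the series, so it is not shown to be a trait of distal runs. The median extent of the distal runs of at least 5 peaks was 2.92 and 3.04 kb. The longest in both lists lay on chromosome 3 from 29959244 to 29971418, with 39 peaks in replicate 1 and 42 in replicate 2 over 12.2 kb. Inside it the median fold enrichment was 1.78 and 1.84, and folds ranged from 1.23 to 2.69 in replicate 1, beside 1.83 and 1.88 for all distal peaks.

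Runs of 25 or more peaks, a size chosen after the data were examined, were 40 in replicate 1 and 42 in replicate 2. They held 14.7% and 15.2% of the distal peaks, and runs of this size in the rest held 12.1% and 12.9% of its peaks. Extents of the distal runs had quartiles of 10.7 and 12.4 kb in replicate 1 and 10.5 and 12.6 kb in replicate 2. The longest was 13.8 kb. Those of the rest were alike, with quartiles of 10.5 and 12.3 kb, and of 10.7 and 12.3 kb, the longest being 13.1 kb. The frequency of distal runs of this size was 0.649 and 0.682 per Mb, against 0.648 and 0.667 in the rest. By chromosome the counts differed, and so did the spans they cover. Chromosome 1 had 16 and 14 distal runs of this size over 19.3 Mb, and 23 and 23 in the 24 Mb of its rest. Chromosome 2 had 7 and 11 over 15.9 Mb, against 8 and 8 over 20 Mb. Chromosome 3 had 17 and 17 over 26.4 Mb, against 4 and 5 over 10 Mb. These counts are not frequencies and are to be read with their spans.

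Along the segments peak number varied far more between places than between the lists. The 121 full windows of 500 kb in the distal segments held a median of 62 peaks in replicate 1 (12 to 230) and 64 in replicate 2 (6 to 233). In 22 windows of each list there were fewer than 30 peaks, and in 7 there were at least 150. The 108 windows of the rest held a median of 74.5 and 78 peaks. Of these, 7 and 8 held fewer than 30, and 10 and 9 at least 150. The 10 fullest distal windows carried 20.3% and 21.0% of all distal peaks, and those of the rest 20.3% and 20.1% of its peaks. Spearman's rho between the lists over the windows was 0.99 in distal and rest alike. The windows share the peaks found in both libraries.

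Chromosome 1 from 26.5 to 27 Mb was the fullest window, with 230 and 233 peaks. It was followed by 36.5 to 37 Mb on the same chromosome, with 211 and 211, and by 13.5 to 14 Mb on chromosome 3, with 205 and 215. The emptiest was chromosome 1 from 38 to 38.5 Mb, with 12 and 6 peaks, only 1 Mb beyond a full one. Chromosome 3 held 12 and 17 from 5 to 5.5 Mb, and 15 and 16 from 27 to 27.5 Mb. Full and nearly empty windows thus occurred within the same segments, on chromosomes 1 and 3 alike.

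At a finer scale, the densest 100 kb of each segment held 62 to 117 peaks. On chromosome 3, 13.4 to 13.5 Mb held 107 and 117 peaks over a median input background of 13.6 and 13.4 times the genome-wide average. On chromosome 2, 23.3 to 23.4 Mb held 87 and 100, on chromosome 1, 26.9 to 27 Mb held 86 and 88, and on the long arm of chromosome 3, 33.8 to 33.9 Mb held 67 and 62. At most 1 peak of each of these stretches had an input background under 2 times the average.

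Long stretches had no peak in either list. The longest was 335 kb on chromosome 3 (12245506 to 12580575), in the segment that also held the densest 100 kb. On chromosome 2 it was 238 kb (33662419 to 33900598) and on chromosome 1 237 kb (27554252 to 27791593). Whether these stretches hold assembly gaps or unmappable sequence was not tested.

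**Figure D3:**
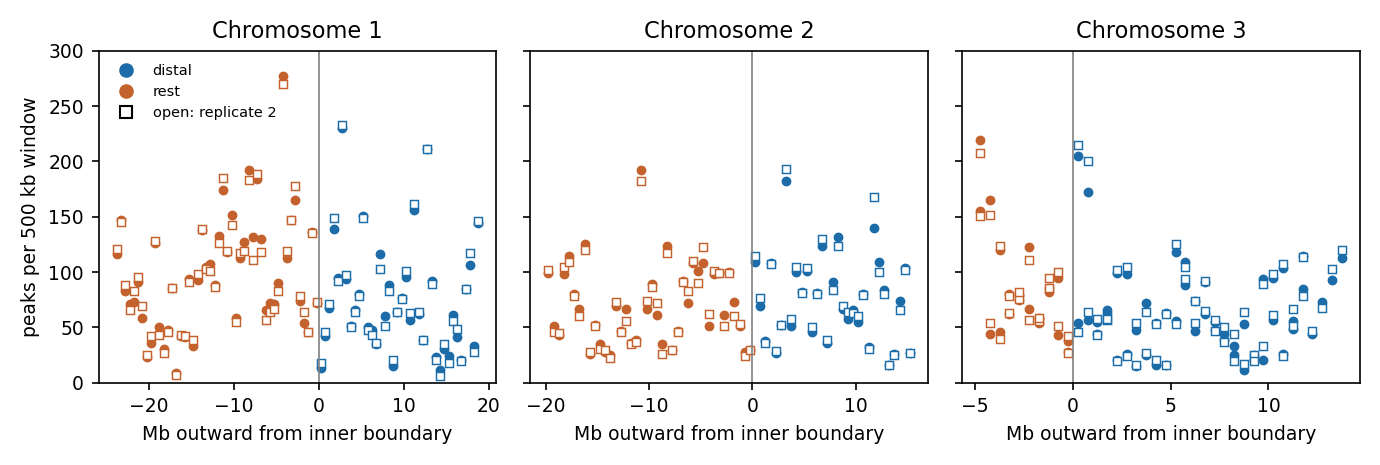
Peaks per full 500 kb window against distance in Mb from the inner boundary of the distal segment, outward to the right, for chromosomes 1 to 3 (distal blue, rest orange, replicate 2 open). The densest distal windows hold 230 and 233 peaks on chromosome 1, and replicates overlie each other nearly everywhere.

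Values near the boundaries depended on the side and the chromosome. In the 1 Mb inside the boundary of chromosome 1 there were 55 and 64 peaks, and in the 1 Mb outside it 208 and 208. On chromosome 2 the order was reversed, with 178 and 192 inside and 58 and 54 outside, and on the short arm of chromosome 3 it was 377 and 415 against 81 and 93. On the long arm of chromosome 3 the sides held 111 and 110 against 123 and 127. From the boundary outward, the long arm of chromosome 3 held 129 and 128 peaks per Mb in the first 4 Mb, 110.5 and 113 in the next and 104.5 and 108 in the last full step, but 233 and 196 in the short end that remains, where 96 and 81 peaks were counted. The short arm of chromosome 3 had the same order over its full steps, 151 and 160, 134.5 and 138, and 113 and 120, and then 161.5 and 169 in its last 2 Mb. The segments of chromosomes 1 and 2 had no such order in both lists.

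Local input background was high at distal peaks, as it was at peaks elsewhere. The median local input background was 139 tags in replicate 1 and 133 in replicate 2, or 8.46 and 8.31 times the genome-wide average of 16.4 and 16.0 tags. The rest had 132 and 127 tags, a ratio of 1.05 in both lists. At least 5 times the average was reached by 76.6% and 77.0% of distal peaks, against 77.3% and 77.5% of all peaks of the series. At least 10 times was reached by 38.8% and 38.3%, against 40.1% and 40.3% of all. The median distal summit held 273 and 263 pulled-down tags.

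Peaks that stood over little input were rarer per Mb in the distal segments than in the rest, while their share of the distal peaks was near that of the series. An input background under 2 times the average was found at 321 peaks (3.66%) in replicate 1 and 347 (3.88%) in replicate 2, where 3.72% and 3.99% of all peaks of the series had one. Per Mb these were 5.21 (4.66 to 5.81) and 5.63 (5.06 to 6.26) against 7.52 (6.81 to 8.29) and 8.69 (7.92 to 9.51) in the rest, a mean ratio of 0.671 ± 0.0315 (SD, n = 2 lists). The ratio was below 1 on each chromosome in both lists, from 0.825 on chromosome 1 in replicate 1 to 0.417 on chromosome 3 in replicate 2. The stretch between the segments of chromosome 3 stood highest, with 10.5 and 13.9 such peaks per Mb. The ratio of densities was closer to 1 at higher backgrounds: 0.693 and 0.649 under 2 times, 0.786 and 0.802 from 2 to 5 times, 0.890 and 0.886 from 10 to 15 times, and 0.912 and 0.991 above that.

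Enrichment over input was nearly the same in the distal segments as in the rest. In the authors' fold enrichment the distal median stood at 1.83 for replicate 1 (quartiles 1.56 and 2.17) and at 1.88 for replicate 2 (1.59 and 2.24). The rest had 1.82 and 1.87. The difference, 0.0151 and 0.0119, was smaller than that between the lists, and on chromosome 2 and chromosome 3 its sign differed between them. Folds of at least 3 were reached by 227 distal peaks (2.59%, interval 2.27 to 2.94%) and 313 (3.50%, 3.14 to 3.91%), against 2.15% and 3.03% of all peaks of the series. In the rest the shares were 2.50% and 3.64%, lower in 1 list and higher in the other.

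Within bands of input background the order was more even. From 2 to 5 times the average the distal median fold exceeded that of the rest by 0.0384 and 0.0934, from 5 to 10 times by 0.0302 and 0.0358, and from 10 to 15 times by 0.0352 and 0.0365. Above 15 times the difference was 0.0250 and 0.00412. Under 2 times it was -0.0560 and 0.0298. The interquartile ranges of distal and rest overlapped in each band.

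Of the distal peaks, 7002 in replicate 1 (79.8%, interval 78.9 to 80.6%) and 7003 in replicate 2 (78.4%, 77.5 to 79.2%) had a partner in the other list, that is a peak overlapping by at least 50% of the shorter. For all peaks of the series the shares were 77.2% and 76.2%, and for the rest 75.8% (74.9 to 76.7%) and 76.3% (75.5 to 77.2%). In the short-arm ends, counted in the rest, 80.3% and 78.7% had a partner on chromosome 1, and 79.6% and 81.3% on chromosome 2. These shares were near the distal ones. The long-arm segment of chromosome 3, which is distal, had 77.2% and 77.3%, near the series. The distal excess over the whole rest was 3.95 and 2.04 percentage points, a mean of 3.00 ± 1.35 (SD, n = 2 lists). It did not hold in every band of input background: under 2 times the average the distal share was below that of the rest, 37.1% and 36.3% against 39.9% and 37.3%. At 15 times and above the difference was 4.60 and -2.75 points, and in the bands between it was positive in both lists.

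Peaks in runs and peaks alone differed more in this respect than distal and rest did. Single distal peaks and long runs stood apart: among the former 58.3% and 58.3% had a partner, and among those in runs of 5 or more 86.9% and 84.7%. In the rest the same classes gave 59.3% and 60.3%, and 85.1% and 84.4%. The intervals of distal and rest overlapped in both of these classes and both lists. A larger part of the distal peaks stood in runs, which goes with the higher share overall; input background also differed between single peaks, at 5.23 and 5.16 times the average, and runs of 5 or more, at 9.43 and 9.26 times. Their separate parts in the share were not tested, nor was accidental overlap between closely spaced peaks.

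**Figure D4:**
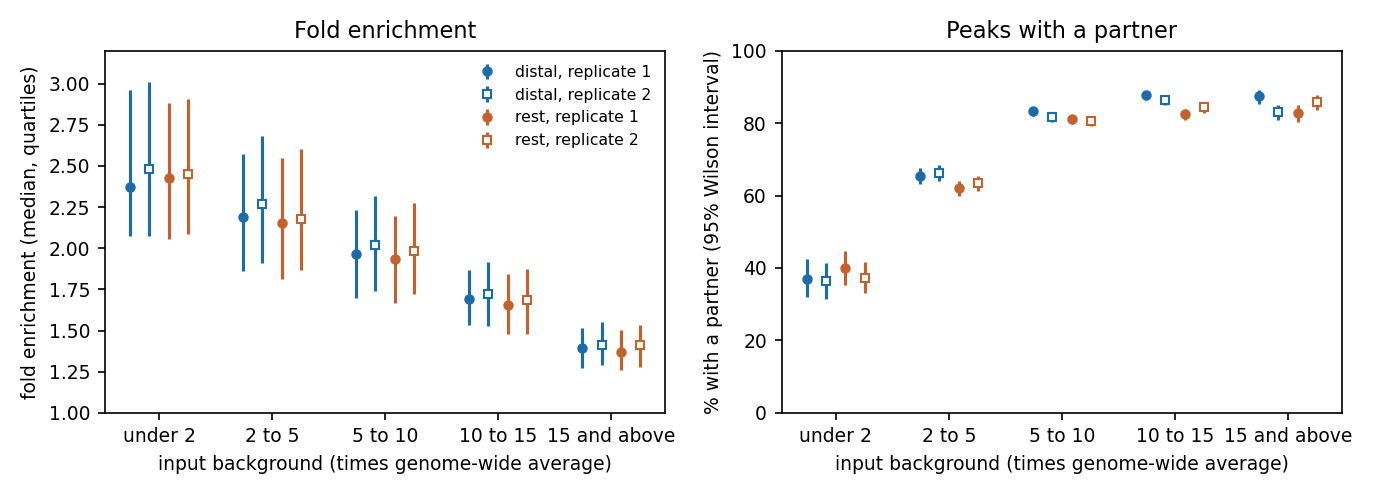
Median fold enrichment with quartiles (left) and percent of peaks with a partner in the other list with 95% Wilson intervals (right), by input background in multiples of the genome-wide average, for distal (blue) and rest (orange) and both replicates. Sharing is lowest under 2 times the average in both parts. Fold is lower at higher backgrounds, from distal medians of 2.37 and 2.48 under 2 times to 1.39 and 1.41 at 15 times and above. The processing limits fold at both ends: the ceiling of 500 tags caps it over high input, and the q cutoff leaves out low folds over little input. Near the average background the lowest distal folds were 1.86 and 1.96. Bands are also set by a quantity that each fold was divided by. No conclusion is drawn from this trend.

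Across the 7002 distal pairs the summits lay a median of 1 bp apart. Spearman's rho between the lists was 0.82 for fold enrichment and 0.97 for both pulled-down tags and input background, the latter being the denominator of the fold in each list. Folds of at least 2 in both lists were found at 2021 pairs (28.9%), of at least 3 at 83, and of at least 4 at 1. Of the 6994 pairs of the rest, 1909 (27.3%) reached 2 in both, 58 reached 3 and 0 reached 4. In a single list, a fold of at least 2 was reached by 32.7% and 36.5% of all peaks of the series, and one of at least 4 by 0.106% and 0.142%. These single-list shares are not a base for folds reached in both lists, and shares over all pairs of the series were not computed.

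Ranked by the smaller of its folds in the lists, the top 10 distal regions lay on chromosome 3 in 6 cases and on chromosome 1 in 4, with none on chromosome 2. They were 50 to 165 bp wide. Their smaller fold was 3.63 or more, a property by which they were picked. In 5 of the 10 the input background was under 2 times the average in both lists. None stood alone in replicate 1, and 7 lay in runs of 5 or more peaks. Of all distal peaks in replicate 1, 12.4% stood alone and 59.3% lay in such runs. With 10 regions, neither count sets them apart from other distal peaks.

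The single pair with folds of at least 4 in both lists lay on chromosome 3 from 9059410 to 9059466. It held 191 tags in replicate 1 (165 to 220) over a background of 39.7, and 178 in replicate 2 (153 to 206) over 42.0, with folds of 4.53 and 4.08. In all named regions tags are unscaled and backgrounds are on the scale of the smaller library, so tags over background do not give the fold. Near the end of the same arm, 2050578 to 2050638 held 116 tags (95.9 to 139) and 77 (60.8 to 96.2) over 24 and 18.2. A further region of the 10, from 2050189 to 2050245, held 80 (63.4 to 99.6) and 76 (59.9 to 95.1) over 19.0 and 16.0. These neighbours had summits 394 bp apart in replicate 1 and belonged to 1 run of 5 peaks.

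On chromosome 1, 31901886 to 31901939 held 83 tags (66.1 to 103) and 68 (52.8 to 86.2) over 16.7 and 16.0, the latter equal to the genome-wide average of replicate 2. From 36037516 to 36037567 there were 77 (60.8 to 96.2) and 75 (59.0 to 94.0) tags over 19.0 and 16.0, with folds of 3.75 and 4.39. The region 26137901 to 26138053 held 266 (235 to 300) and 255 (225 to 288) over 67.0 and 68.0, with folds of 3.77 and 3.64. In each of these 3 regions the intervals of both replicates overlapped. In replicate 2 the background of 36037516 to 36037567, and of 2050189 to 2050245 on chromosome 3, also equalled the genome-wide average. The recomputed background is the one used in the fold and need not be the input at the summit itself. Whether input at such sites was lower therefore cannot be told.

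Also on chromosome 1, 31544892 to 31545048 had 151 and 164 tags at 4.56-fold and 3.95-fold. The same tag numbers in both lists recurred at 6 other pairs on 6 chromosomes, but there the fold was 1.49 and 1.48, over backgrounds of 97.0 and 108. Equal tag numbers alone thus did not go with equal folds. On chromosome 3, 35639867 to 35639937 held 288 and 244 tags over 62.0 and 62.1, and here the 3 other pairs with these tag numbers had similar folds, 4.20 to 4.40 over all 4 in replicate 1. The remaining regions of the 10, 6314080 to 6314140 and 24791049 to 24791098 on chromosome 3, had folds of 4.00 and 3.89, and of 3.65 and 3.63.

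**Figure D5:**
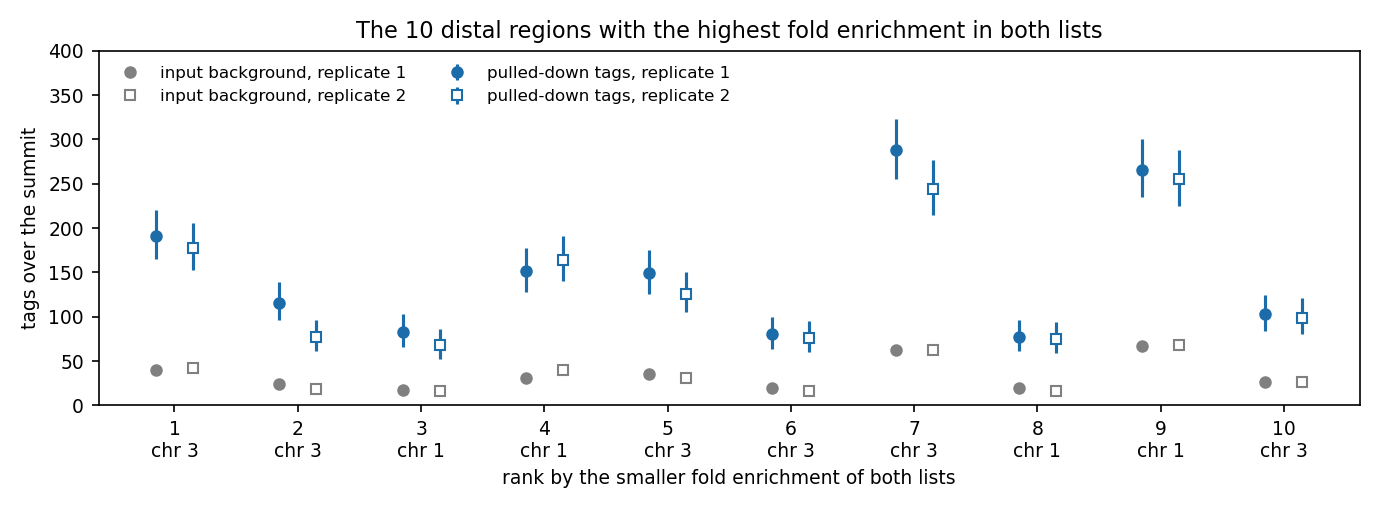
Pulled-down tags over the summit (blue, with 95% exact Poisson intervals) and local input background (grey) for the 10 distal regions with the highest smaller fold, replicate 1 filled and replicate 2 open. Tags run from 68 to 288 and backgrounds from 16.0 to 68.0. Tags are unscaled and backgrounds are on the scale of the smaller library, so their ratio is not the fold. The regions were picked by fold, so the distance between tags and background is set by the choice.

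The single highest distal fold of each list was not matched in the other. In replicate 1 it was 7.04 on chromosome 1 from 31983883 to 31983960, with 2.81 in replicate 2. The region 1187034 to 1187089 on chromosome 3 had a fold of 5.16 in replicate 2, with 120 tags over 22.0, and 2.74 in replicate 1, with 96 tags over 33.0. On chromosome 1, 31984222 to 31984494 had 4.64 in replicate 1, with 168 tags over 34.0, and 2.45 in replicate 2, with 134 tags over 53.0. In each of these regions, picked by the fold of 1 list, that list had both more tags and less input background. Regions ranked 3 in each list had less input background there, but fewer tags. These were 31544892 to 31545048 on chromosome 1, with 151 tags in replicate 1 against 164, and 10158781 to 10158867 on chromosome 3, with 133 in replicate 2 against 167. The region ranked 2 in replicate 2, 625910 to 625962 on chromosome 3, had no partner.

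Over little input, the most tags in both lists were found on chromosome 3 from 7205665 to 7205717, with 114 (94.0 to 137) and 108 (88.6 to 130) tags over 32 and 25. No other peak lay within 1 kb of it in replicate 1. Next were 33355078 to 33355134 on chromosome 1, with 116 and 104 tags, and 24888907 to 24889059 on chromosome 2, with 119 and 100. The region 35117483 to 35117651 on chromosome 1 had 120 and 97, and the other of the 5 was 24791049 to 24791098, named above. Of the distal peaks with such a background 37.1% and 36.3% had a partner, as given above. The background was low in both lists in 89 of the 7002 distal pairs, and in 127 of the 6994 pairs of the rest. The distal segments span 61.6 Mb and the rest 54 Mb, and the share over all pairs of the series was not computed.

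Regions of highest significance were of another kind. By the smaller −log10 q of both lists, the first was 26932623 to 26932753 on chromosome 1, with 419 and 397 tags over backgrounds of 135 and 126, folds of 2.97 and 3.07 and −log10 q of 69.8 and 72.1. Of the next 4, 3 had the same tag numbers, 438 and 421: 35656326 to 35656453 and 21223086 to 21223148 on chromosome 2, and 28218075 to 28218204 on chromosome 3. These numbers occurred at 30 pairs of the series on 11 chromosomes, 3 of them distal, 8 in the rest and 19 elsewhere, with folds from 2.42 to 2.87 in replicate 1. The other region, 34867452 to 34867519 on chromosome 3, had 395 and 365 tags, found at no other pair.

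Wide peaks made up a slightly larger share than in the rest. A width of at least 200 bp was reached by 757 distal peaks (8.62%) and 823 (9.21%), against 7.07% and 7.74% of all peaks of the series and 7.03% and 7.71% of the rest. Per Mb there were 12.3 and 13.4, against 12 and 13.1. In the short-arm ends, counted in the rest, 11.4% and 11.0% of peaks reached this width on chromosome 1, and 9.44% and 11.1% on chromosome 2. The widest single distal peak was 936 bp long, on chromosome 1 in replicate 1. By the smaller width of a pair, the first was on chromosome 1 from 41411574 to 41412276, 703 and 701 bp long, at 1.36-fold and 1.53-fold from 438 and 411 tags. The next, on chromosome 3 from 36027972 to 36028643, had the same tag numbers and folds. Then came chromosome 2 from 31880512 to 31881155, where the peak had 429 and 423 tags. The software keeps at most 500 tags over a position, and 90% of that ceiling was reached by 442 distal peaks (5.03%) and 361 (4.04%), against 4.18% and 3.16% of the rest and 5.68% and 5.14% of the series.

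Many distal peaks carried values that recurred elsewhere. In 788 distal peaks of replicate 1 (8.98%) and 776 of replicate 2 (8.69%), tags, fold and width equalled those of another pair in both lists at once; of all peaks of the series 8.73% and 8.55% did so, and of the rest 7.89% and 7.87%. The chromosome 1 segment stood highest of the 4, at 10.7% and 10.4%. The distal pairs belonged to 508 sets of equal pairs, of which 385 also had members outside chromosomes 1 to 3, and 570 of the 788 (72.3%) were in those. Conversely 65 sets lay wholly within 1 segment, 58 of them within 100 kb.

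The sets with most distal members had 7. In the first of them 21 peaks on 7 chromosomes were 53 bp wide at 239 tags and 2.19-fold in replicate 1, and 62 bp wide at 237 tags and 2.68-fold in replicate 2. Its first distal member was on chromosome 1 from 28840492 to 28840544. Another comprised 20 peaks on 11 chromosomes, at 473 tags and 1.39-fold in replicate 1 and 466 tags and 1.40-fold in replicate 2. A set of 21 peaks on 7 chromosomes, 6 of them distal, was named next, at 476 tags and 1.18-fold, and 490 tags and 1.45-fold.

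Members of the last pair of these sets stood side by side. At 8 loci on 6 chromosomes a peak with 473 tags in replicate 1 was followed by one with 476, with starts 620 to 622 bp apart. Of these loci 4 were distal: 27348896 on chromosome 1, 25170948 on chromosome 2, and 7461627 and 10668296 on chromosome 3. The following pair of sets by distal members, singled out after their values were seen, had 462 and 401 tags in replicate 1. At 9 loci they stood in 1 order with starts 568 bp apart, and at 3 loci in the opposite order with starts 528 bp apart. From outer edge to outer edge the extent was 619 bp at all 12 loci. The 5 distal loci were all in the first order, the first being 41834165 on chromosome 1. What sequences these are was not tested.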

How the data were processed

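Peak lists of 2 pulled-down libraries were used; the 2 input libraries enter as their controls. Per the submitters' processing notes, reads were trimmed with cutadapt and peaks called with MACS2. Per the file headers, MACS 2.2.5 ran on each replicate separately at a q cutoff of 0.05, with 50 bp tags and fragments, so tags were not extended to the 200 to 500 bp fragments given in the labels, and at most 5 tags were kept per position. For the aligner, repeated matches and build, steps were not given in the sources used here, so values in repeats depend on unseen choices. Kept pulled-down tags numbered 136923044 and 130482505, and input tags 131452322 and 127964706, per the file headers.

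The deposited pileup is a signal in tags scaled to the smaller library; division by 0.960 and 0.981 restored whole tags within 0.02 for 100% of peaks in both lists. Fold enrichment, as deposited, is the ratio of pileup plus 1 to local input background plus 1, from which the background was recomputed. The background is thus on the scale of the smaller library, which was the input in both replicates. The restored whole tags are not on that scale. Deposited −log10 p-values and q-values come from the authors' Poisson test. Positions are 1-based, of the deposited lists.

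Alternatives moved the boundaries, the q threshold, the partner rule and the spacing, and left out chromosomes or lists. Densities use spans to the last listed peak. Named regions follow a rule written with earlier results of these data known: the 10 distal pairs with the highest smaller fold, 5 with the highest −log10 q, 3 widest, 5 with most tags over low input, the fullest and emptiest windows (3 each), the densest 100 kb per segment, 1 longest empty stretch per chromosome, and 3 sets of equal pairs. Members, boundaries and lists were likewise chosen with those results known. On 18005 simulated peaks of chromosomes 1 to 3 with 59.4% left in place, the partner rule found 100% of these and called 0.972% of the moved ones. Moved peaks were placed at random along the whole chromosome. The rate therefore does not cover accidental overlap between closely spaced peaks in runs, which was not tested. Python 3.11.15, NumPy 2.4.6, pandas 2.3.3, SciPy 1.17.1 and matplotlib 3.10.9 were used.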

Additional observations from a re-analysis of the deposited data

How the results depend on the processing

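Each value is the mean of both lists. With boundaries moved 2 Mb outward or inward, the rest without the short-arm ends, −log10 q of at least 5, and without chromosome 1, 2 or 3, in that order, the density ratio (0.845) was 0.827, 0.793, 0.760, 0.866, 0.923, 0.747 and 0.906, and 0.780 with peaks under 200 bp apart joined. In the same order the input background ratio (1.05) was 1.04, 1.03, 1.08, 1.05, 1.10, 1.04 and 1.03. The difference of median fold (0.0135) was 0.0255, 0.0177, 0.0190, -0.000188, -0.00645, 0.0214 and 0.0202, so it changed sign at −log10 q of at least 5 and without chromosome 1; as a mean of log2 fold it was 0.00738. The ratio of low-background density (0.671) stayed within its SD with moved boundaries, was 0.584, 0.636, 0.606, 0.636 and 0.760 in the other settings, and 0.705 with a limit of 3 times. The difference in peaks with a partner (3.00 percentage points) stayed within its SD in all 9 settings, from 2.57 to 4.33. For the next 2 results, the settings were chosen after seeing the data. The difference in peaks within 1 kb (6.96 points) was 6.90 and 6.12 with moved boundaries, then 8.64, 7.86, 9.64, 6.19 and 6.18, and 8.44 and 3.53 at distances of 500 bp and 2 kb. The ratio of runs per Mb (0.651) was 0.632, 0.628, 0.549, 0.662, 0.674, 0.578 and 0.712, and 0.744 and 0.652 at those distances. Causes of these shifts were not tested.

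Without either replicate the density ratio was 0.834 to 0.855, the background ratio 1.05 in both, the fold difference 0.0119 to 0.0151, the low-background ratio 0.649 to 0.693, the difference within 1 kb 6.42 to 7.49 and the ratio of runs 0.648 to 0.654. A partner needs both lists, so neither could be left out there. No paired analysis was possible because the comparison lies within each list, whose peaks were already called with their own input. The lowest distal folds near the average background were 1.86 and 1.96, so at this depth weaker enrichment over little input was not detectable.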
